A study of Homo sapiens with 6 samples.

Results

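The CD1 genes CD1A, CD1B, CD1C, CD1D and CD1E were examined in MOLT-4, a human cell line from T-cell acute lymphoblastic leukemia (T-ALL). They are 5 of the 60640 genes in the tables and were found by exact gene symbol. All 5 passed the filter on low values, which kept 12652 genes with a mean of at least 1 FPKM (fragments per kilobase of transcript, scaled to the mapped fragments of the library) over the 6 libraries. PolyA RNA-seq was performed on 3 wild type libraries, which are the CRISPR knockout control, and on 3 IK-KO libraries, in which IKZF1, the gene of the lymphoid regulator IKAROS, was targeted with CRISPR-Cas. The knockout cells and their control were both purchased and grown in RPMI with 10% FBS. The study shows a western blot of different IKZF1-knockout clones of MOLT-4, but the labels of these libraries name no clone. They also do not say whether replicates were separate cultures, so line-to-line differences and effects of the edit cannot be told apart. Every p-value here therefore reflects spread among libraries, which may be technical. The 5 genes were proposed with the IK-KO against wild type values of these same libraries in view, so that contrast is described for them without a test.

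CD1 proteins are relatives of MHC class I molecules that pair with beta-2-microglobulin and present lipids, rather than peptides, to T cells. CD1A, CD1B and CD1C, the group 1 members, present mostly microbial and self lipids to diverse T cells. CD1D, the group 2 member, presents lipids to natural killer T (NKT) cells, whereas CD1E stays inside the cell and helps to load lipids on the others. CD1 molecules mark cortical thymocytes, the stage at which developing T cells carry both CD4 and CD8, and CD1A on the surface is used to class T-ALL as cortical.

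The 5 genes form one cluster on chromosome 1 (158178030 to 158357553, GRCh38), 179.5 kilobases long, in the order CD1D, CD1A, CD1C, CD1B and CD1E. CD1B is on the minus strand and the others are on the plus strand. CD1D spans 158178030 to 158186427, CD1A 158254424 to 158258269, CD1C 158289923 to 158294774, CD1B 158327951 to 158331531 and CD1E 158353696 to 158357553. Each canonical transcript in GENCODE 44 has 6 exons. The annotation holds 15 transcripts of CD1E, 7 of CD1D, 2 each of CD1B and CD1C and 1 of CD1A, but the tables give 1 value per gene, so splice forms were not separated.

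The start regions of the members are shown because the genes, although neighbours, differed in direction between the groups. RefSeq promoter sequences (GRCh38.p14) were matched for 4 of the 5 genes, and CD1B was the missing entry. The 250 bases before the start of each canonical transcript are printed 5′ to 3′ on the plus strand, at chr1:158180645-158180894 for CD1D, chr1:158254174-158254423 for CD1A, chr1:158289673-158289922 for CD1C and chr1:158353644-158353893 for CD1E. The window of CD1D lies within the annotated gene and that of CD1E partly does, since other transcripts of these genes start earlier. Capitals mark GGGAA, the core of the IKAROS motif, read on either strand (TTCCC on the other). These letters contain GGAA, the core that ETS factors read, so the match is not particular to IKAROS.
CD1D: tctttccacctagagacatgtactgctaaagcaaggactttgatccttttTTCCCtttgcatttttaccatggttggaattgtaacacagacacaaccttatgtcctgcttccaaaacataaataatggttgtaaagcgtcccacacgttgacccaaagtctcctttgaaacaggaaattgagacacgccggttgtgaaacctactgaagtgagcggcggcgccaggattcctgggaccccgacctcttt
CD1A: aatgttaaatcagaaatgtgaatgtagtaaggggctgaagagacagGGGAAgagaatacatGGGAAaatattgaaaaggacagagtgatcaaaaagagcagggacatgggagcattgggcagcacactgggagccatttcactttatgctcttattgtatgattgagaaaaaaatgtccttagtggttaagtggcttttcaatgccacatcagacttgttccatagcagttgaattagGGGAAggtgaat
CD1C: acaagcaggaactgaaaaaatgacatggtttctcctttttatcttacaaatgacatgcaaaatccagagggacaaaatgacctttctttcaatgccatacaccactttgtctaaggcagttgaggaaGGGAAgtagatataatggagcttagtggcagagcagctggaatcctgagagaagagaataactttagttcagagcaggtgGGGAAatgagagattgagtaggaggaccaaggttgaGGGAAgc
CD1E: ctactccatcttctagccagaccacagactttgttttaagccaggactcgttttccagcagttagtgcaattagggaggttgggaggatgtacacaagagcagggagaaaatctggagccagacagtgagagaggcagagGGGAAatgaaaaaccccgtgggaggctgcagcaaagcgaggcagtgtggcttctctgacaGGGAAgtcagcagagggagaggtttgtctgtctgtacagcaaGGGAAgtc
CD1A, CD1C and CD1E each held 3 copies, all on the printed strand, and CD1D held 1 copy on the other strand. The copy nearest the start began 12 bases before it in CD1A, 7 in CD1C and 8 in CD1E. Among 35116 promoter windows of the same length, 59.0% held at least 1 copy and 24.1% held 2 or more. The letters were thus present in genes that were higher and in a gene that was lower in IK-KO, and a match is a description of the sequence and not a binding site.

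The targeted gene was measured first. IKZF1 was at 134, 124 and 105 FPKM in wild type replicates 1 to 3 and at 207, 260 and 207 FPKM in IK-KO replicates 1 to 3, or 0.89 in log2 units (limma SE 0.12 and adjusted p 0.00295). A gene was called, and is said to have risen or fallen, at a limma adjusted p under 0.05, which 19.9% of all tested genes passed. IKZF1 RNA was higher and not lower in the edited line, so RNA does not check the labels, and the groups are named by their labels throughout. The study's methods state that the knockout was checked by PCR and western blot, which were not analysed here. The FPKM sum of the libraries lay between 699352 and 738051, with between 13.0% and 14.4% of it from mitochondrial genes. FPKM is already scaled to the mapped fragments, so this sum does not measure library size. T-cell markers were present in both groups, with LCK, a kinase of T-cell receptor signalling, at 216 ± 7.62 FPKM in wild type and 227 ± 3.58 FPKM in IK-KO (SD, n = 3). CD3E, a chain of the CD3 complex, was at 408 ± 19.9 and 385 ± 17.4 FPKM (SD, n = 3). Of the 9 T-cell markers, 3 rose (CD3D, CD3G and TRBC2) and 3 fell (CD2, TRAC and CD7), 66.7% against 19.9% of all tested genes. This list and the later gene lists were chosen with earlier results of these data known, so no enrichment is read from their shares. The largest change among the 9 markers was that of CD2, from 61.5 ± 2.45 to 5.14 ± 0.217 FPKM (SD, n = 3), or −3.35 in log2 units.

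Monocytes, dendritic cells and B cells also carry CD1 molecules, so 12 of their markers were summed. The sum lay between 3.69 and 4.57 FPKM in wild type and between 0.875 and 1.29 FPKM in IK-KO. FCER1A, CD207, CLEC10A and ITGAX, which mark dendritic cells, were listed at 0 in all 6 libraries. CD14, a monocyte marker, was at most 0.519 FPKM in each. CR2, the complement receptor of B cells that is also found on immature T cells, was the one marker to pass the filter. It measured 2.41, 2.23 and 2.16 FPKM in the wild type libraries, against 0, 0.0123 and 0.0346 FPKM in the IK-KO libraries (log2 change −1.69). CR2 thus passed the filter through the wild type libraries alone, so its test is not read. CD79A, a B-cell receptor component, reached 1.83 FPKM in a wild type library, and MS4A1, which also marks B cells, was at most 0.0676 FPKM in each. Apart from CR2 and CD79A, each of the 12 markers was below 1 FPKM in every library. In bulk RNA, fewer cells with a transcript and less transcript per cell cannot be told apart.

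CD1A, CD1C and CD1D were higher in IK-KO than in wild type, whereas CD1B and CD1E were lower. The groups did not overlap in any of the 5 genes, which 39.0% of all tested genes share. The lowest confidence bound of the higher group also lay above the highest bound of the lower group in all 5. The share of all tested genes with bounds apart in this way was not computed, so that count has no background here. Of all tested genes, 19.9% were called at the threshold above, 10.1% higher and 9.75% lower. Because the members were proposed with this contrast in view, nothing is read from these counts and shares.

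CD1C, which presents lipids on dendritic cells, some B cells and cortical thymocytes, had the largest ratio among the 3 higher members. It measured 22.9, 23.0 and 22.2 FPKM in wild type replicates 1 to 3 and 55.7, 62.1 and 66.4 FPKM in IK-KO replicates 1 to 3. The wild type libraries lay within 1 FPKM of each other, while the IK-KO libraries spread more widely. The mean was 22.7 ± 0.459 FPKM in wild type and 61.4 ± 5.41 FPKM in IK-KO (SD, n = 3), 2.71-fold higher, with a log2 change of 1.39 (SE 0.08 from the spread within groups).

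CD1D, the restriction element of NKT cells, measured 15.8, 16.5 and 15.4 FPKM in the wild type libraries, against 34.6, 37.0 and 38.6 FPKM in the IK-KO libraries. It was the least abundant member in every library. The mean went from 15.9 ± 0.545 to 36.7 ± 2.003 FPKM (SD, n = 3), 2.31-fold higher, with a log2 change of 1.16 (SE 0.05).

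CD1A, the member used to define cortical T-ALL, measured 52.7, 53.1 and 47.3 FPKM in the wild type libraries, against 91.5, 91.9 and 96.9 FPKM in the IK-KO libraries. The lowest IK-KO library was above the highest wild type library by more than the whole range within either group. The mean went from 51.0 ± 3.25 to 93.4 ± 2.98 FPKM (SD, n = 3), 1.83-fold higher, with a log2 change of 0.86 (SE 0.06). On the log2 scale CD1A had the smallest difference of the 3 higher members.

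CD1B, which binds lipids with the longest chains in the family, measured 128, 130 and 125 FPKM in the wild type libraries, against 71.7, 73.1 and 72.7 FPKM in the IK-KO libraries. Its log2 difference had the smallest SE of the 5 genes. The mean was 127 ± 2.63 FPKM in wild type and 72.5 ± 0.707 FPKM in IK-KO (SD, n = 3), so that the wild type level was 1.76 times that of IK-KO, with a log2 change of −0.80 (SE 0.02).

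CD1E, the lipid-transfer member of late endosomes and lysosomes, measured 236.5, 245.1 and 211.5 FPKM in the wild type libraries, against 76.2, 84.5 and 77.4 FPKM in the IK-KO libraries. It was the most abundant member in every wild type library and had the largest difference in the cluster. The mean was 231 ± 17.5 FPKM in wild type and 79.4 ± 4.50 FPKM in IK-KO (SD, n = 3), 2.91 times higher in wild type, with a log2 change of −1.53 (SE 0.08).

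**Figure D1:**
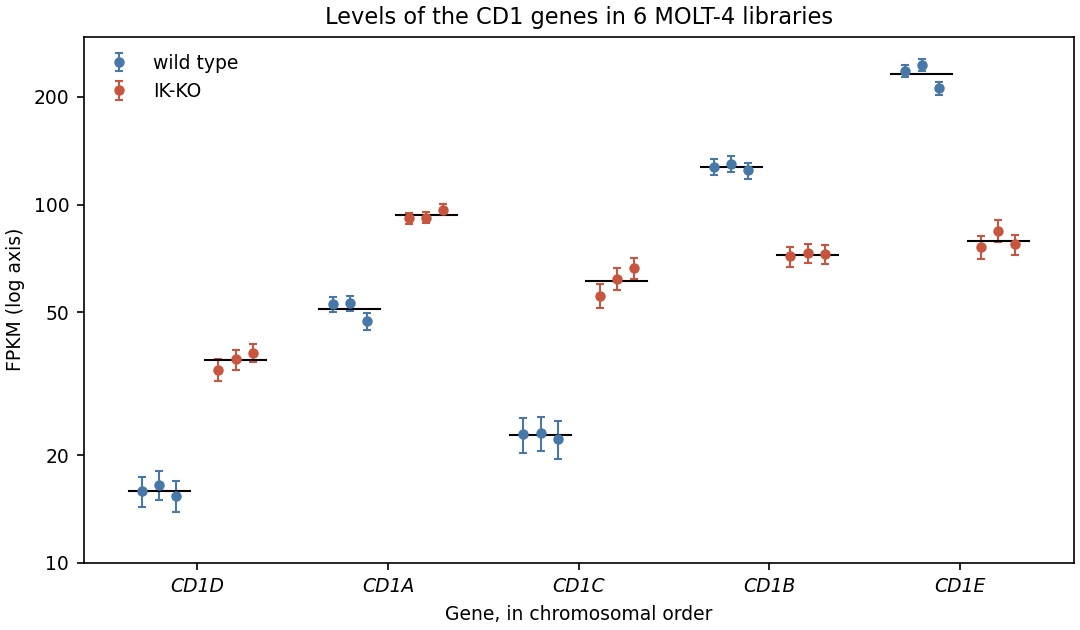
FPKM on a log axis for each CD1 gene in chromosomal order, with 1 point per library, the confidence bounds of the authors' tables as bars and the group mean as a black line. CD1D, CD1A and CD1C sit higher in the 3 IK-KO libraries (red) than in the 3 wild type libraries (blue), and CD1B and CD1E sit lower.

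The order of the levels therefore differed between the groups. In wild type it was CD1E, CD1B, CD1A, CD1C and CD1D in each of the 3 libraries, and each gene's confidence bounds lay apart from those of the next. In IK-KO it was CD1A, CD1E, CD1B, CD1C and CD1D in each library, but these neighbours were not all apart. Within a library, the bounds of CD1A and CD1E overlapped in replicate 2, those of CD1E and CD1B in replicates 1 and 3, and those of CD1B and CD1C in replicate 3. The means spanned 15.9 to 231 FPKM in wild type and 36.7 to 93.4 FPKM in IK-KO, so the 5 levels were closer together in IK-KO. CD1E exceeded the mean level of 97.3% of tested genes in wild type and of 90.9% in IK-KO, and CD1D exceeded 58.8% and 79.4%.

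The make-up of the CD1 pool shifted with this. Added up, the members reached 456, 468 and 421 FPKM in wild type, against 330, 349 and 352 FPKM in IK-KO, with means of 448 ± 24.2 and 344 ± 12.0 FPKM (SD, n = 3). CD1B and CD1E together made up 79.9%, 80.2% and 79.9% of this sum in the wild type libraries and 44.9%, 45.2% and 42.6% in the IK-KO libraries. CD1E alone went from 51.5% ± 1.14 to 23.1% ± 1.12 (SD, n = 3). CD1A went from 11.4% ± 0.172 to 27.2% ± 0.745, CD1C from 5.07% ± 0.176 to 17.9% ± 0.994 and CD1D from 3.55% ± 0.0923 to 10.7% ± 0.245 (SD, n = 3). The shares within a group differed far less between libraries than the groups did.

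**Figure D2:**
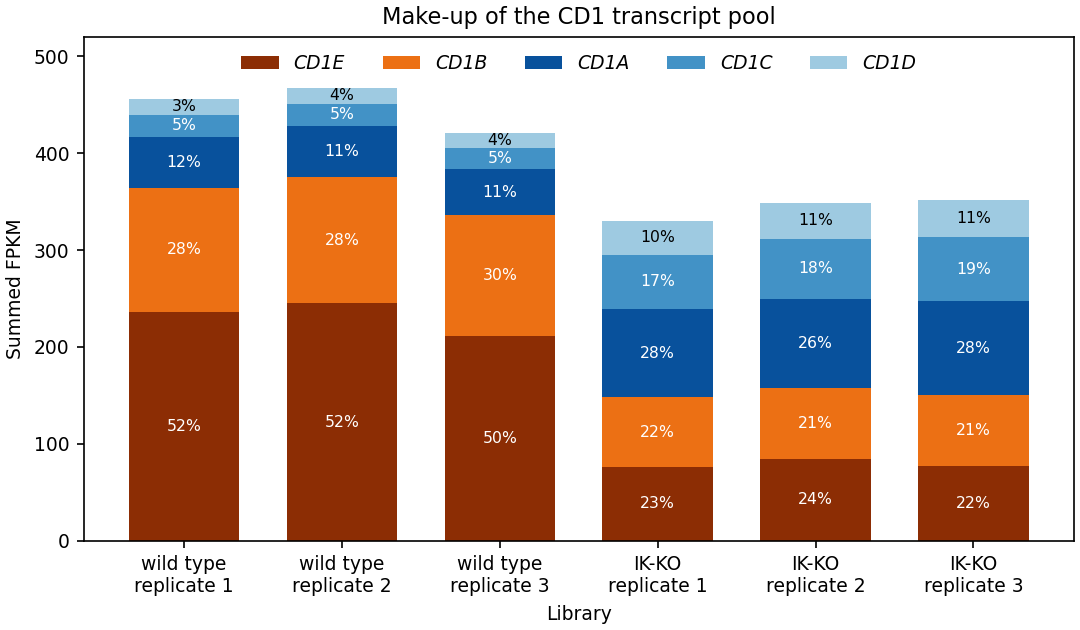
Summed FPKM of the 5 CD1 genes in each library, divided by gene, with each gene's percent of the sum printed in its segment. CD1E and CD1B (brown and orange) fill 79.9% to 80.2% of the bar in the wild type libraries and 42.6% to 45.2% in the IK-KO libraries.

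Ratios within a library do not depend on how libraries were scaled. There were 4.49, 4.62 and 4.47 units of CD1E per unit of CD1A in wild type and 0.832, 0.920 and 0.799 in IK-KO. For CD1B over CD1A the ratio was 2.50 ± 0.117 in wild type and 0.777 ± 0.0236 in IK-KO (SD, n = 3). The members of one direction did not move by equal amounts. CD1C over CD1D went from 1.43 ± 0.0250 to 1.67 ± 0.0569, and CD1E over CD1B from 1.81 ± 0.101 to 1.09 ± 0.0532 (SD, n = 3).

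Fragments of similar genes can be divided wrongly by the estimation, so the transcripts were compared. The coding sequences of the members shared between 67.2% (CD1D and CD1C) and 73.2% (CD1B and CD1E) of aligned bases. The longest identical run between canonical transcripts was 92 bases, in CD1A and CD1B, followed by 88 in CD1B and CD1E and 80 in CD1A and CD1E. CD1C shared no run longer than 24 bases with any other member. Fragments inside the long runs are less certain for CD1A, CD1B and CD1E, and how they were assigned is not given in the sources used here.

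The genes around the cluster on chromosome 1 were examined beside it. Of the 10 tested genes on each side, 6 rose and 3 fell, 9 of 20 against 19.9% of all tested genes. Their median log2 change was 0.17, against 0.02 over all tested genes, and with it subtracted the changes were 0.99 for CD1D, 0.69 for CD1A, 1.23 for CD1C, −0.97 for CD1B and −1.70 for CD1E. Without IK-KO replicate 2 the count of called neighbours was 4 of 20, against 13.7% of all genes tested in that fit.

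KIRREL1, a cell adhesion gene and the nearest tested gene before CD1D, rose from 5.08 ± 0.107 to 10.4 ± 0.518 FPKM (SD, n = 3), or 0.91 in log2 units (limma SE 0.08 and adjusted p 0.000578). AL365440.2, a long noncoding RNA and the nearest tested gene after CD1E, measured 9.41, 3.99 and 7.08 FPKM in the wild type libraries, against 0.412, 1.67 and 0.462 FPKM in the IK-KO libraries, or −2.08 in log2 units (limma SE 0.34 and adjusted p 0.00629). The nearest gene on each side thus had the direction of the CD1 gene next to it. Beyond them, IFI16, a DNA sensor, was not called (log2 change 0.10, limma adjusted p 0.379). DUSP23, a phosphatase gene, and TAGLN2, an actin-binding gene, fell, with log2 changes of −1.46 and −0.74. HDGF, PRCC, ETV3, PIGM and COPA rose, with log2 changes between 0.28 and 0.46, and ETV3 and PIGM lost their calls in 8 of 13 alternatives each and PRCC in 7.

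Inside the cluster the tables list 3 further genes, named after their values were seen. AL138899.2, a processed pseudogene between CD1D and CD1A, measured 10.1, 9.88 and 5.75 FPKM in the wild type libraries, against 3.27, 3.74 and 3.25 FPKM in the IK-KO libraries. It fell by 1.08 on the log2 scale (SE 0.20, limma adjusted p 0.00982), while both CD1 genes beside it were higher. AL138899.1, a long noncoding RNA beside it, had a log2 change of −0.38 (limma adjusted p 0.175), and the pseudogene HMGN1P5 was listed at 0 in every library. None of the 3 overlaps a CD1 gene, and as a pseudogene AL138899.2 may share fragments with its parent gene.

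**Figure D3:**
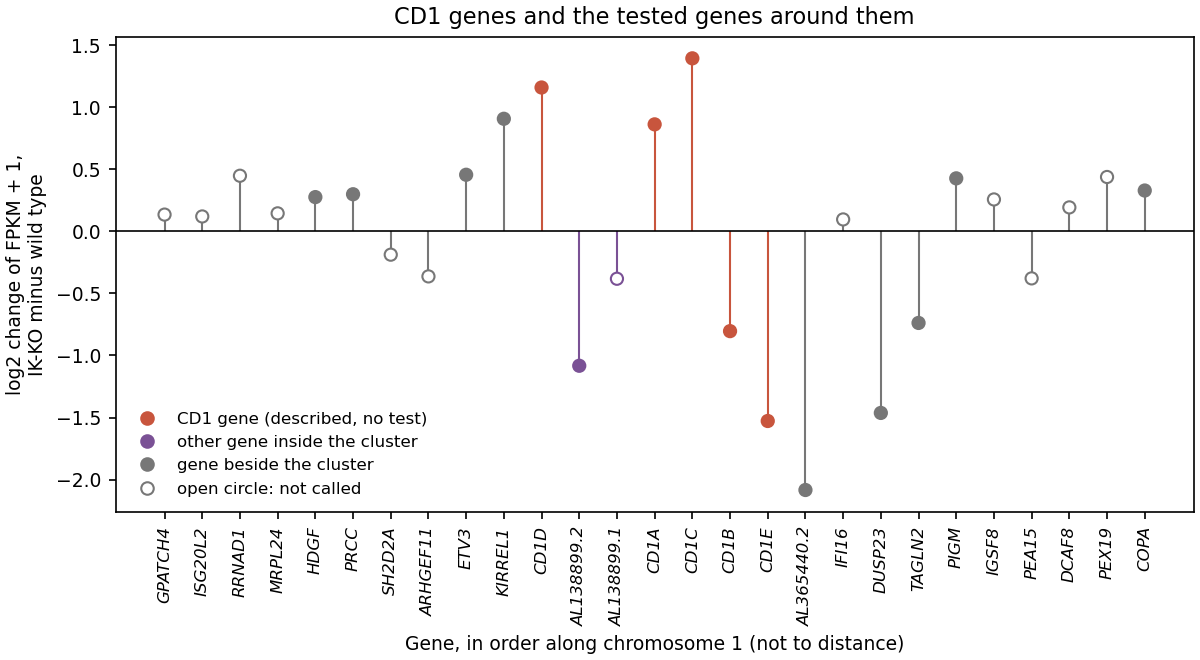
log2 change of FPKM + 1 (IK-KO minus wild type) for the CD1 genes, for the 2 other tested genes inside the cluster and for 10 tested genes on each side, in order along chromosome 1 and not to distance. Filled grey and purple circles were called by limma, and the CD1 genes (red) are described without a test, with CD1D, CD1A and CD1C above 0 and CD1B and CD1E below.

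CD1 heavy chains need partners for folding, transport and lipid loading. B2M, the gene of the shared light chain, was at 1243 ± 64.4 FPKM in wild type and 1300 ± 30.3 FPKM in IK-KO (SD, n = 3) and was not called (log2 change 0.07, limma adjusted p 0.399). The summed CD1 level was 36.1% ± 1.65 of that of B2M in wild type and 26.4% ± 0.370 in IK-KO (SD, n = 3).

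Of the 36 genes listed for CD1 assembly, trafficking and lipid loading, 32 were tested, of which 5 rose and 6 fell, 34.4% against 19.9% of all tested genes, with a median log2 change of 0.01. The number called was 6 of 32 without wild type replicate 1, where 13.6% of all tested genes were called. It was 7 of 32 when IK-KO replicate 2 or else IK-KO replicate 3 was left out, where the share over all genes was 13.7% and 14.2%. GM2A, a lysosomal protein that lifts glycolipids out of membranes, rose most, from 15.3 ± 0.589 to 33.2 ± 0.673 FPKM (SD, n = 3), or 1.07 in log2 units (limma SE 0.06 and adjusted p 9.81e-05). CANX, the endoplasmic reticulum chaperone of newly made heavy chains, rose by 0.54 on the log2 scale (limma adjusted p 0.000567), and PDIA3, which works with it, by 0.35. NPC2, a lysosomal carrier of cholesterol, rose by 0.38. PSAP, the precursor of the saposins that load lipids on CD1 proteins, was at 213 ± 4.36 and 235 ± 3.50 FPKM (SD, n = 3) and did not pass the test (limma adjusted p 0.0509).

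The largest fall in that list was in IFI30, a lysosomal thiol reductase of antigen processing, from 4.96 ± 2.10 to 0.615 ± 0.358 FPKM (SD, n = 3), or −1.85 in log2 units (limma SE 0.29 and adjusted p 0.00519). LGMN, the lysosomal protease legumain, fell from 11.2 ± 0.861 to 3.35 ± 0.0508 FPKM (SD, n = 3). Adaptor complexes sort CD1 proteins into endosomes by their tails. Of 13 tested subunits of AP-1, AP-2 and AP-3, AP2B1 and AP1B1 fell, by 0.26 and 0.25 on the log2 scale, and the others were not called, a count of 2 of 13 that is no higher a share than the 19.9% of all tested genes. AP1B1, CTSB, HSPA5 and GLA lost their calls in 6 or 7 of 13 alternatives. MTTP, CD74, CTSS and CTSL, which act in lipid loading or antigen processing elsewhere, were at most 0.377 FPKM in every library.

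The list of cortical thymocyte genes also held members in both directions. Of 20 tested genes, 8 rose and 8 fell, 80.0% against 19.9% of all tested genes, and the median log2 change was 0.03. As the list was chosen with earlier results of these data known, no enrichment is read from this share. CCR9, the chemokine receptor of cortical thymocytes, rose from 56.0 ± 1.70 to 150 ± 2.24 FPKM (SD, n = 3), or 1.41 in log2 units (limma SE 0.05 and adjusted p 8.93e-06). PTCRA, the pre-T-cell receptor alpha chain, had a log2 change of 0.69 at a mean below 3 FPKM (limma adjusted p 0.0466), and it lost its call in 8 of 13 alternatives.

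The 3 largest falls in that list were in CD28, RAG1 and DNTT. CD28, a costimulatory receptor, measured 6.92, 6.17 and 5.50 FPKM in the wild type libraries, against 0.169, 0.288 and 0.350 FPKM in the IK-KO libraries, or −2.50 in log2 units (limma SE 0.14 and adjusted p 0.00010). RAG1, a subunit of the V(D)J recombinase, fell from 58.4 ± 4.06 to 16.6 ± 1.43 FPKM, and DNTT, which adds bases at V(D)J joints, from 85.9 ± 4.11 to 26.4 ± 1.66 FPKM (SD, n = 3). The coreceptors of the double-positive stage were low to begin with. CD4 fell from 2.77 ± 0.178 to 0.384 ± 0.117 FPKM and CD8A from 9.02 ± 0.627 to 2.94 ± 0.331 FPKM (SD, n = 3). CD8B, at 1.79 ± 0.927 and 0.844 ± 0.847 FPKM (SD, n = 3), was not called (limma adjusted p 0.263). CD38, TCF12 and BCL11B were not called either.

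NKT cells are selected in the cortex by CD1D on neighbouring thymocytes with the help of receptors of the SLAM family. Of the 10 genes listed as partners, 4 passed the filter, of which 3 rose and 1 fell, so that each was called, against 19.9% of all tested genes. SLAMF6, one of these receptors, encoded on chromosome 1 as the CD1 cluster is, fell from 13.0 ± 0.205 to 5.10 ± 0.265 FPKM (SD, n = 3), or −1.20 in log2 units (limma SE 0.08 and adjusted p 0.000154). Its adaptor SH2D1A was at 99.99 ± 7.11 and 119 ± 4.59 FPKM (SD, n = 3), or 0.25 in log2 units (limma adjusted p 0.0366), and lost its call in 8 of 13 alternatives. FYN, the kinase bound by that adaptor, rose by 0.88 (SE 0.05), and CD247, the zeta chain of the T-cell receptor complex, by 1.88 (SE 0.06). TRAV10, TRAJ18 and TRBV25-1, the receptor segments of invariant NKT cells, were listed at 0 in every library. These are short segments, with TRAJ18 at 22525650 to 22525715 on chromosome 14, so a listed 0 need not mean that they were absent.

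The other MHC class I relatives were set beside the CD1 genes. Of 13 listed genes, 7 were tested and 3 were called, 42.9% against 19.9% of all tested genes, and HLA-B and MICB, a stress-induced ligand of NK-cell receptors, were the 2 that fell. HLA-B measured 203, 93.7 and 152 FPKM in the wild type libraries, against 0.796, 12.8 and 6.05 FPKM in the IK-KO libraries, or −4.68 in log2 units (limma SE 0.69 and adjusted p 0.00435), and its fragments are uncertain because it is polymorphic and similar to its paralogs. MR1, which presents vitamin B metabolites and is the relative nearest to CD1 in its use of non-peptide antigens, was at 5.25 ± 0.568 and 5.94 ± 0.344 FPKM (SD, n = 3) and was not called (limma adjusted p 0.363). Summed CD1 transcripts exceeded those of the 13 relatives in all 6 libraries, at 421 to 468 against 190 to 293 FPKM in wild type and 330 to 352 against 98.2 to 115 FPKM in IK-KO.

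**Figure D4:**
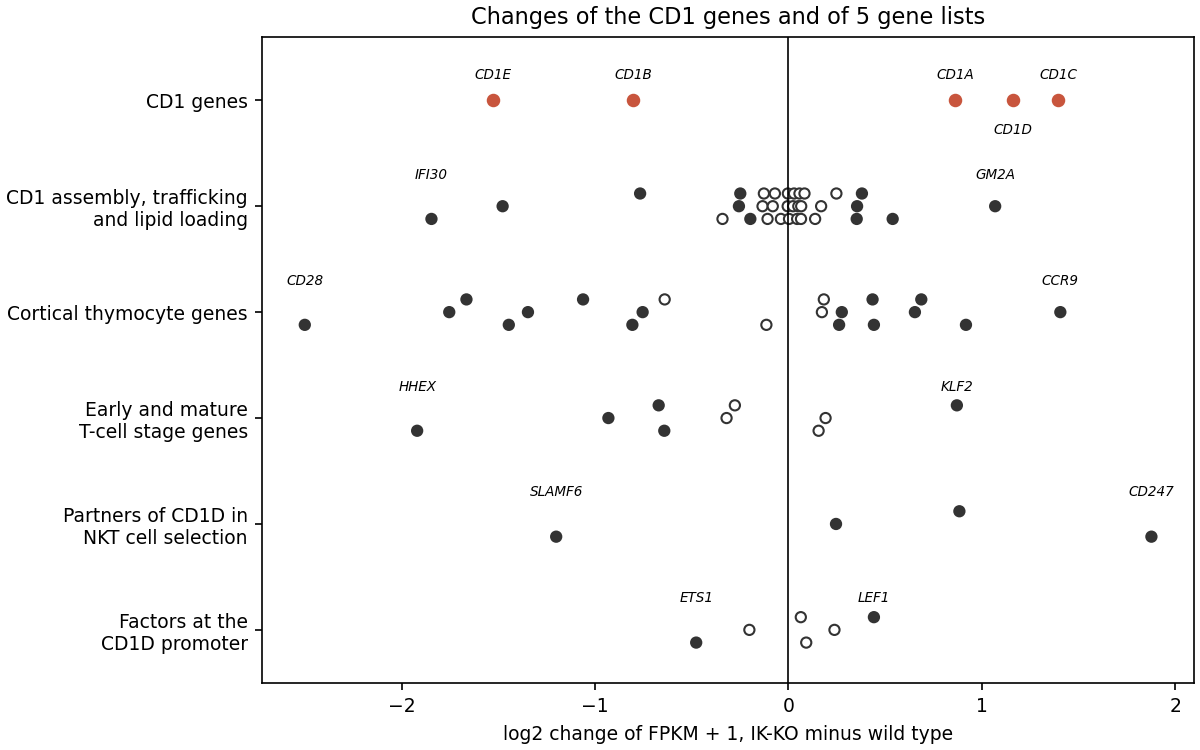
log2 change of FPKM + 1 (IK-KO minus wild type) for the CD1 genes and for the tested genes of 5 lists, with 1 circle per gene, filled where limma called it, and the extreme genes of each list named. The CD1 genes and the cortical thymocyte genes hold values on both sides of 0, and most genes of CD1 assembly and trafficking lie near 0.

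Genes with the most similar profile to each member were found by the root-mean-square difference of log2(FPKM + 1) over the 6 libraries, each gene centred on its mean. For CD1A these were FYN, ITM2B and ADM2 (differences 0.04 each), and for CD1D they were IGFBP2, TRGC2 and GM2A (0.04 to 0.06). For CD1C they were CCR9, SPRY2 and MFAP4 (0.08 to 0.09). For CD1B they were SLC9A3R1, REV3L and PALLD (0.03 each), and for CD1E they were EHD4, LGMN and MFNG (0.05 to 0.06). Each profile holds the difference between the groups, so any gene with the same fold is near, and no nearest gene lies on chromosome 1. GM2A and LGMN are also in the list of lipid loading, CCR9 is in that of cortical thymocytes and FYN is in that of CD1D partners. Nothing is read from this overlap, since the lists were chosen with earlier results of these data known.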

How the data were processed

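The authors deposited 1 gene-level table of FPKM per library, beside which stand confidence bounds and whether the estimate succeeded. Their processing notes name STAR 2.6.1c, Cufflinks 2.2.1, HOMER 4.10 and hg38. The mouse pipeline in the study's methods does not describe these tables, and strand setting and annotation release are not given in the sources used here. Depth is unknown because no counts are given, so precision is read from the bounds. Positions of all 49784 identifiers shared with GENCODE 44 were the same. Rows of 1 identifier were summed (110 identifiers), and 29 genes with a failed estimate were left out. log2(FPKM + 1) was tested with limma 3.58.1 in R 4.3.3 (trend, two-sided, Benjamini-Hochberg adjustment) over 12652 genes, where the study states an unadjusted 2-condition test. A change on this scale understates that of low genes. A gene can pass the filter through the group where it is high. CR2, IFI30, CD28, CD4, HHEX, EHD4, AL365440.2 and DUSP23 did so, with a mean below 1 FPKM in IK-KO, and ADM2 had such a mean in wild type. The fit was tested on simulated data. The members, lists and tests were chosen with earlier results of these data known. Named genes were the 5 members, IKZF1, B2M, the largest called rise and fall of each list (3 each for cortical thymocyte genes), called and nearest genes beside the cluster, and the 3 nearest profiles per member. Other genes named were chosen after their values were seen. Some genes that the rule covers are not reported here. Alternatives changed the pseudocount, scaling, filter, libraries, block and bounds.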

Additional observations from a re-analysis of the deposited data

How the results depend on the processing

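The direction of each CD1 gene held in all 14 alternatives, but most of these could not have turned it. The replicate block leaves a difference of group means as it is, and the neighbours' median was smaller than each change. The groups and their bounds lay apart, so leaving out a library, changing the pseudocount or using either bound could not turn it either. The scaling factors of the libraries lay between 0.953 and 1.03, too close to 1 to do so. With the median change of the genes beside the cluster subtracted, the log2 changes were 0.99 for CD1D, 0.69 for CD1A, 1.23 for CD1C, −0.97 for CD1B and −1.70 for CD1E. CD1B, whose SE was smallest, also moved to −0.86 under quantile normalization and to −0.84 when rescaled without mitochondrial genes. Leaving out each library in turn gave 1.12 to 1.20 for CD1D, 0.81 to 0.89 for CD1A, 1.34 to 1.46 for CD1C, −0.82 to −0.79 for CD1B and −1.59 to −1.49 for CD1E. IKZF1 stayed called, at 0.78 to 0.97.

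The count of all called genes lay between 1720 and 2801 (2515 as reported). The assembly and loading list had 6 to 9 called genes and the genes beside the cluster 4 to 8 when one library was left out. With the replicate block these counts were 7 and 5, and 1805 over all genes. Replicate numbers did not pair the libraries, since deviations of same-numbered libraries correlated at 0.067, 0.025 and 0.005 across genes, and not every library correlated best with its own number. The other list counts stayed within 1.5 times. FPKM without counts limit what can be said of genes below about 1 FPKM.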

Other observations

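Genes of the stages before and after the cortex were also measured. Of 14 such genes, 9 were tested, and 1 rose and 4 fell, 55.6% against 19.9% of all tested genes, with a median log2 change of −0.32 against 0.02 over all tested genes. HHEX, a transcription factor of early progenitors, fell from 4.86 ± 0.121 to 0.573 ± 0.341 FPKM (SD, n = 3), or −1.92 in log2 units (limma SE 0.18 and adjusted p 0.000647). CD44, an adhesion receptor of early thymocytes and of memory T cells, fell from 42.7 ± 3.71 to 21.9 ± 1.74 FPKM (SD, n = 3). KLF2, a regulator of exit from the thymus, rose from 15.2 ± 0.293 to 28.7 ± 1.58 FPKM (SD, n = 3), whereas S1PR1, the egress receptor, fell by 0.64 on the log2 scale (limma adjusted p 0.00387). CD34, a stem and progenitor marker, was at 9.95 ± 1.78 and 7.69 ± 0.334 FPKM (SD, n = 3) and was not called. LMO2 lost its call in 5 of 13 alternatives.

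Of 8 transcription factors described at the CD1D promoter, 6 were tested, and LEF1 rose and ETS1 fell, 33.3% against 19.9% of all tested genes. LEF1, which is also in the list of cortical thymocyte genes, measured 745, 767 and 675 FPKM in the wild type libraries, against 1011, 948 and 1010 FPKM in the IK-KO libraries, or 0.44 in log2 units (limma SE 0.06 and adjusted p 0.00283). ETS1 went from 120 ± 9.50 to 86.1 ± 1.33 FPKM (SD, n = 3), or −0.48 in log2 units (limma SE 0.07 and adjusted p 0.00302). SP1, SP3, ELF1 and RARA were not called, and SPI1 and RXRA were below 1 FPKM in every library.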
